A study of Mus musculus with 9 samples.

Results

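Cytochrome P450 genes outside the Cyp2c and Cyp3a subfamilies and the Cyp4 family were compared between colonic mucosa of ApcMin/+ mice and of ApcMin/+; p16cis/cis animals. They were taken as every gene whose symbol has the form Cyp, a number, letters and a number, leaving out names that start with Cyp2c, Cyp3a or Cyp4. This rule also drops Cyp46a1, which had 15 reads in all mice together. This gave 54 genes, of 94 symbols of that form and 54146 genes in the table. RNA-seq had been made from 9 mice of the strain C57BL/6J at 15 wk of age, and each mouse was 1 replicate. The ApcMin/+ group (n = 5) had 2 females and 3 males, and the ApcMin/+; p16cis/cis group (n = 4) had 3 females and 1 male. All 9 mice carried the Min allele, a heterozygous germline mutation of Apc that starts intestinal adenomas, so no mouse with 2 intact Apc alleles entered the comparison. The p16cis allele is a knock-in that draws DNA methylation to the p16 promoter, and the second group carried it in the germline on both chromosomes. According to the methods the RNA came from colonic crypts.

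Cytochrome P450 enzymes are haem proteins that insert an oxygen atom into a substrate, with electrons passed on by P450 oxidoreductase in the endoplasmic reticulum or by adrenodoxin in mitochondria. Members of the Cyp1 and Cyp2 families mostly oxidize drugs, plant compounds and fatty acids, whereas the families with higher numbers mostly make or remove bile acids, vitamin D, retinoic acid and steroid hormones. The liver holds most of this activity, and the intestinal epithelium holds a smaller set of these enzymes at the surface where food compounds enter.

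The value of a gene is its normalized count, the count of reads on the gene divided by the size factor of the mouse. Of the 54 genes, 17 reached a value of 10 in 4 or more mice and were tested. Another 24 had reads but did not pass this filter, and 13 were listed at 0 in all 9 mice (Cyp1a2, Cyp2a4, Cyp2a5, Cyp2b13, Cyp2b23, Cyp2g1, Cyp2j7, Cyp2j11, Cyp2j12, Cyp7a1, Cyp11b1, Cyp11b2 and Cyp19a1). For these 13 the depth allows a share of up to 1.68e-05% to 2.22e-05% of the reads of a mouse (3 reads of its total, counting error only). The libraries held 13523500 to 17885918 reads on genes, and the 54 genes together took 115841 of 140908881 reads. The 37 genes that were not tested took 354 of them. The reads were concentrated in few genes. Cyp2s1 held 31.1% of the reads on the 54 genes, Cyp2d34 held 21.5%, Cyp2j6 held 11.7% and Cyp2d26 held 9.95%.

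The libraries differed between the genotypes in several other ways that stand beside every result here. The share of reads on mitochondrially encoded genes was 12.0% ± 2.87 in the 5 ApcMin/+ mice and 24.2% ± 4.41 in the 4 others (SD), and the reads on genes ranged from 15745098 to 17885918 and from 13523500 to 14900228. Neither measure overlapped between the genotypes (p = 0.0159 each by a two-sided exact permutation test, the smallest it gives). Cdkn2a, the gene that encodes p16, was listed at 0 in each library, so the targeted gene gave no check of the labels. The epithelial markers Epcam, Krt8, Krt18, Krt19, Cdh1 and Vil1 had normalized counts of at least 8373 in every mouse. Their sum was 174440 to 253886 in ApcMin/+ mice and 169445 to 232889 in ApcMin/+; p16cis/cis animals. Of the 6, 2 had a log2 fold change above 0 and 4 below, with 0 at an adjusted p under 0.05 in limma. Only Epcam did not overlap, with 27841 to 38616 and 24444 to 26913 (log2 fold change -0.38, adjusted p = 0.0938 from limma). The summed level of 8 markers of absorptive colonocytes was 160300 to 308868 in ApcMin/+ mice and 116570 to 149774 in ApcMin/+; p16cis/cis animals, without overlap. All 8 had a log2 fold change below 0, and Slc26a3 was called lower (-1.23), that is with an adjusted p under 0.05 and more than 2-fold in limma. The summed level of 6 goblet cell markers was 226764 to 412424 and 277561 to 553424, with all 6 above 0 and Spink4 called higher (1.41). For 6 leukocyte markers it was 97.9 to 1425 and 302 to 498, with 2 above 0, 4 below and none called. For 6 markers of smooth muscle and fibroblasts it was 26.7 to 347 and 32.9 to 150, with all 6 below 0 and Col3a1 called lower (-2.92). The sum of 6 small intestinal markers was 1025 to 3376 and 403 to 890, and of the 3 tested Sis (-3.04) and Alpi (-1.60) were called lower. That of 4 adipocyte markers was 125 to 422 and 41.7 to 90.2, nearly all of it Cidec, which was called lower (-1.69), with Adipoq and Plin1 at most at 7.98 and Lep at 0. That of 6 Hox genes of the distal colon was 6622 to 11452 and 9539 to 12714, with all 6 above 0 and Hoxd10 called higher (1.35). Of 6 hepatocyte markers, Serpina1a and Fgb were at 0 in all 9 mice and Ahsg was at most 2.54, while the sum of the 6 was 1007 to 1963 and 1773 to 2086, mostly Ttr, and Apoa2 was called higher (1.10). The part of cell composition and of the mitochondrial share in the results was not tested, and in bulk tissue fewer cells of a type cannot be told apart from less RNA per cell.

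Divided by the exon length of each gene, the levels of the tested genes covered a wide range. In ApcMin/+ mice Cyp2d34 had 1179 ± 181 (SD, n = 5) normalized counts per kb of exon, Cyp2s1 had 1093 ± 449 and Cyp2d26 had 1086 ± 162, and these neighbours in the order did not differ beyond their spread. Cyp2j6 came next with 573 ± 84.7 per kb, then Cyp2d10 with 322 ± 111 and Cyp2f2 with 286 ± 167. Genes of bile acid and oxysterol metabolism stood in the middle of the order, with 232 ± 113 per kb for Cyp27a1 and 195 ± 10.8 for Cyp39a1. The lowest tested genes were Cyp2u1 with 4.08 ± 0.93 and Cyp11a1 with 0.879 ± 0.41 per kb. In ApcMin/+; p16cis/cis animals Cyp2d34 and Cyp2s1 were again the highest, with 1297 ± 408 and 866 ± 175 per kb (SD, n = 4), and Cyp2d26 at 514 ± 41.3 lay near Cyp2d10 at 428 ± 148 and Cyp2j6 at 408 ± 57.9.

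**Figure D1:**
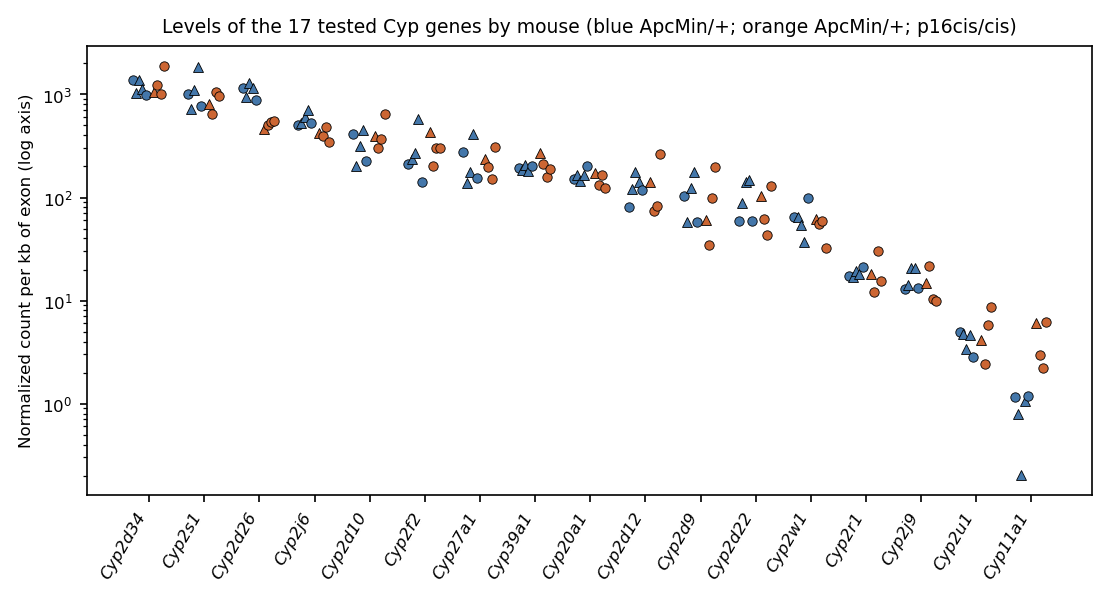
Normalized count per kb of exon (log axis) of the 17 tested genes, ordered by the mean in ApcMin/+ mice, with 1 point per mouse (blue ApcMin/+, orange ApcMin/+; p16cis/cis, circles females, triangles males). Cyp2d34, Cyp2s1 and Cyp2d26 lead in ApcMin/+ mice, and Cyp2d26 and Cyp11a1 are displaced between the colors in opposite directions.

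To learn which of these genes differed with the p16cis allele, the genotypes were compared with limma on log2(normalized count + 1) across all 14410 genes that passed the filter, with Benjamini-Hochberg adjustment over all of them. A gene was called at an adjusted p under 0.05 and a fold change over 2, and differences are given as ApcMin/+; p16cis/cis minus ApcMin/+ on that log2 scale, which understates the change of low genes. Cyp2d26 fell and Cyp11a1 rose. These were the 2 genes called of 17, whereas 3.48% of all genes tested were called, 1.64% as lower and 1.83% as higher. Cyp2j6 had an adjusted p under 0.05 at less than a 2-fold difference, which brought the count at this p with any fold to 3 of 17, near the 16.9% of all genes tested. The same 3 genes were those without overlap between the groups, beside 16.2% of all genes tested. Cyp11a1 passed the filter only through the mice in which it was high, with a value of at least 10 in 4 of 4 ApcMin/+; p16cis/cis animals and 0 of 5 ApcMin/+ mice, so it had to differ to be tested at all. The median log2 fold change of the 17 genes was -0.045, beside -0.0041 over all genes tested, with 7 genes above 0 and 10 below.

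For the other 14 tested genes no difference was detected, with adjusted p-values from 0.289 (Cyp2d10) to 0.973 (Cyp27a1). For 10 of these 14 the 95% interval of the log2 fold change lay inside a 2-fold difference in both directions. The interval was narrowest for Cyp39a1, from -0.24 to 0.38, and Cyp20a1, from -0.47 to 0.16. It reached past 2-fold for Cyp2d9 (from -1.23 to 0.76), Cyp2d10 (from -0.15 to 1.00), Cyp2d22 (from -1.03 to 0.53) and Cyp2u1 (from -0.58 to 1.05), so larger differences of these genes were within the error.

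**Figure D2:**
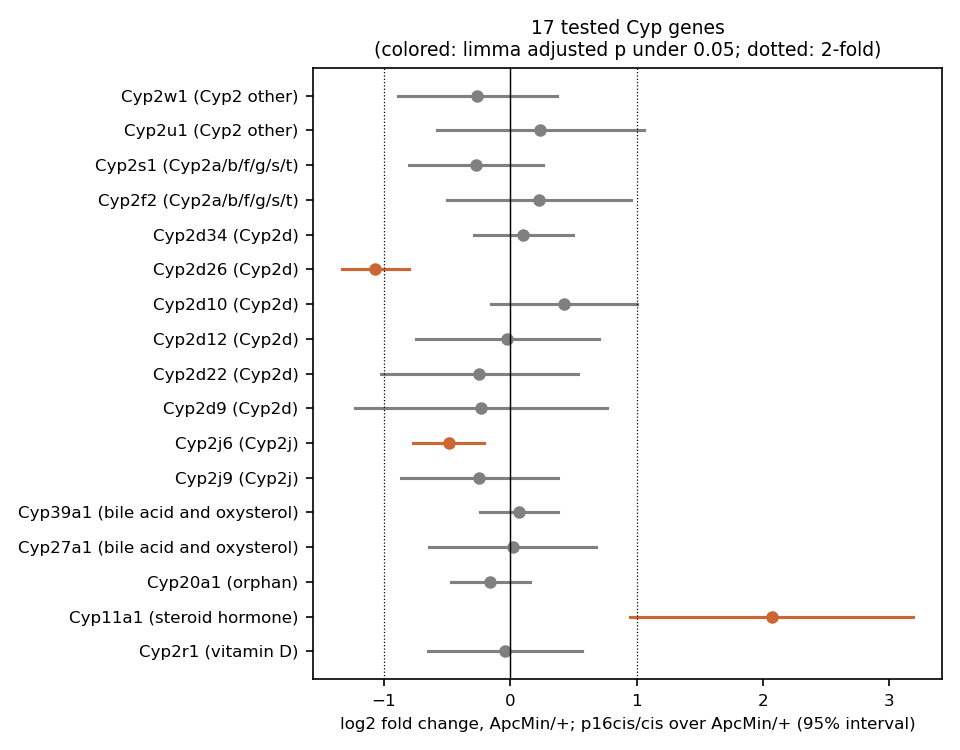
Log2 fold change (ApcMin/+; p16cis/cis over ApcMin/+) of the 17 tested genes with its 95% interval from limma, grouped by role, with dotted lines at a 2-fold difference. The 3 colored genes had an adjusted p under 0.05, Cyp2d26 at -1.07, Cyp2j6 at -0.49 and Cyp11a1 at 2.07, and the other 14 intervals include 0.

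The Cyp2d genes, relatives of the human drug-metabolizing enzyme CYP2D6, were the most heavily read group, with 49226 reads over 8 genes. Cyp2d26 (ENSMUSG00000022445.7) codes for protein and lies on the minus strand of chromosome 15 (82790101 to 82794294 in GRCm38). Its normalized counts were 2079, 1697, 2294, 2063.05 and 1596 in ApcMin/+ replicates 1 to 5, and 823, 903, 972 and 984 in ApcMin/+; p16cis/cis replicates 1 to 4. Every ApcMin/+; p16cis/cis animal was below every ApcMin/+ mouse, and the 4 lay within a narrow range. The means were 1946 ± 290 (SD, n = 5) and 921 ± 74.0 (SD, n = 4), and the log2 fold change was -1.07 with a standard error of 0.12 (limma, adjusted p = 0.00143), or 2.10-fold lower. It was the only gene of the 54 called with Bonferroni adjustment over all genes tested (adjusted p = 0.0187 from limma). In females alone, 2 against 3, the difference was -0.93 (limma, adjusted p = 0.0162), under 2-fold. With the mitochondrial share as a covariate it was -1.04 with a standard error of 0.27 and an adjusted p of 0.848 from limma. That share itself followed genotype, which explained 78.1% of its variance.

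Cyp2d34, the other leading gene of the group, had normalized counts of 3805, 2898, 3800, 3117 and 2745 in ApcMin/+ replicates 1 to 5, and 2935, 3407, 2807 and 5254 in ApcMin/+; p16cis/cis replicates 1 to 4. Replicate 4 of the second group was the highest of all 9 mice and the other 3 lay inside the range of ApcMin/+ mice. Its log2 fold change was 0.10 with a standard error of 0.18. The same mouse was the highest of its group for Cyp2d10, Cyp2d12, Cyp2d9 and Cyp2d22, with normalized counts of 1059, 1018, 526 and 506. The other mice of that group had 502 to 657, 284 to 543, 92.5 to 263 and 170 to 404. In the order of the chromosome the group runs Cyp2d22, Cyp2d11, Cyp2d10, Cyp2d9, Cyp2d12, Cyp2d34, Cyp2d40 and Cyp2d26 over 424 kb (chr15:82370527-82794294), so Cyp2d26 lies at 1 end of it. Cyp2d11 and Cyp2d40, which lie among the expressed genes, had at most 6.27 and 6.38 normalized counts in any mouse and were not tested.

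Set against its relatives within each mouse, Cyp2d26 was displaced as well. Of the summed normalized counts of the 6 tested Cyp2d genes, Cyp2d26 made up 28.2%, 28.8%, 28.0%, 27.4% and 28.7% in ApcMin/+ replicates 1 to 5. In ApcMin/+; p16cis/cis replicates 1 to 4 it made up 14.9%, 16.6%, 18.9% and 10.5%. The share was nearly constant in ApcMin/+ mice (SD 0.57, n = 5) and varied more in the other group (SD 3.55, n = 4), without overlap. The sum of the other 5 genes was 3967 to 5891 in ApcMin/+ mice and 4167 to 8364 in ApcMin/+; p16cis/cis animals. The 8364 was that of replicate 4, whose Cyp2d26 was the highest of its group. With the other 5 genes weighted equally, log2(normalized count + 1) of Cyp2d26 minus their mean was 1.34 to 1.91 in ApcMin/+ mice (SD 0.23). It was -0.14 to 1.15 in ApcMin/+; p16cis/cis animals (SD 0.59), without overlap, so this measure varied in both groups. Both measures were chosen after the values were known, so no test of them is given. The share needs no size factor, since both terms come from the same library. The transcripts of these genes share sequence, and reads can be split between them. Of the 50-base stretches of Cyp2d10 35.8% occur also in transcripts of other genes, of Cyp2d9 21.8%, of Cyp2d26 9.49%, of Cyp2d12 7.61%, of Cyp2d34 7.55% and of Cyp2d22 4.13%, so the values of Cyp2d10 and Cyp2d9 are the least certain.

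**Figure D3:**
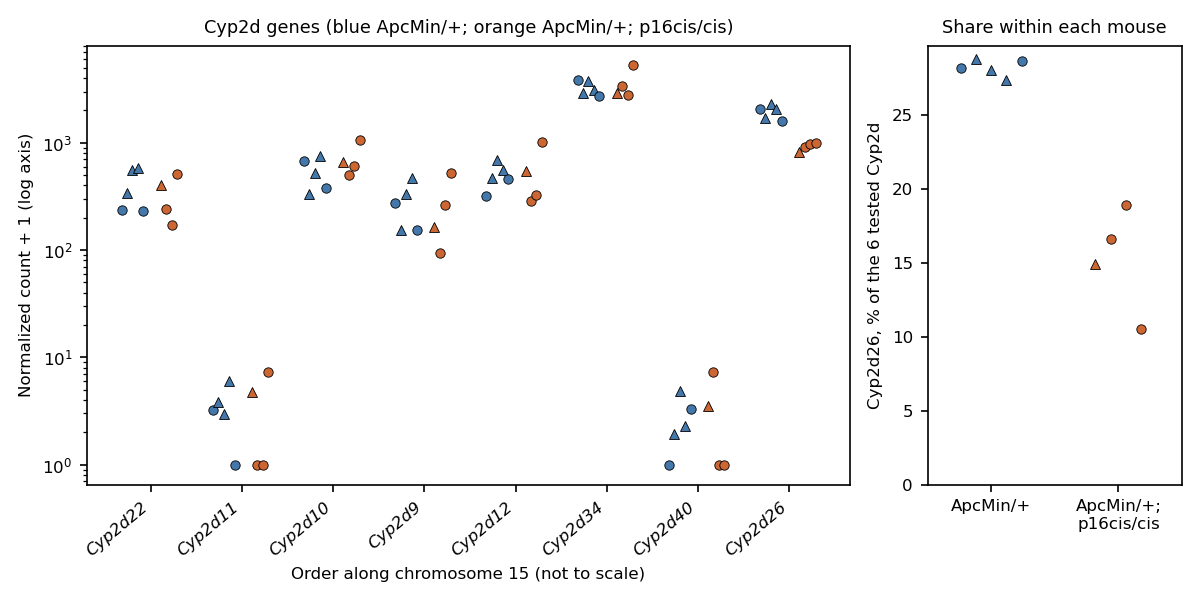
Left, normalized count + 1 (log axis) of the 8 Cyp2d genes in their order along chromosome 15, and right, the share of Cyp2d26 in the summed normalized counts of the 6 tested Cyp2d genes, with 1 point per mouse (blue ApcMin/+, orange ApcMin/+; p16cis/cis). The 5 blue points lie from 27.4% to 28.8% and the 4 orange points from 10.5% to 18.9%.

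The promoter of Cyp2d26, which fell, is shown beside that of Cyp2d10, a relative of the same stretch for which no difference was detected. They are the 250 bases before the RefSeq start site (GRCm38.p6), written from 5′ to 3′ on the minus strand, chr15:82794246-82794495 for Cyp2d26 and chr15:82407195-82407444 for Cyp2d10. Capitals mark a match to TATAAA on either strand.
Cyp2d26: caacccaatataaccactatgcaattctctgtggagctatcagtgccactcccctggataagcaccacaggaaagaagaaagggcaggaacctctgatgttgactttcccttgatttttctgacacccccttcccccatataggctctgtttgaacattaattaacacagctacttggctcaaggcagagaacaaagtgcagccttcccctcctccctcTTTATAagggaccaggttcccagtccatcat
Cyp2d10: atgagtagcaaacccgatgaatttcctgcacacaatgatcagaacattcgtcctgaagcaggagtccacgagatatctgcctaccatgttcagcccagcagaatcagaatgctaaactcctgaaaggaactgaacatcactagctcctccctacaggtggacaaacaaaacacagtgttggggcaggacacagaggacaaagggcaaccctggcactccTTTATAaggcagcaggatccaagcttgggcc
Both hold the match at the same place, with its outermost base 31 bases before the RefSeq start site. For Cyp2d26 that site lies inside the gene at the position given above, so the window reaches into the gene. Windows from 250 bases before to 50 after a RefSeq start site were searched. RefSeq gives 44 such windows for 40 of the 54 genes, among them 12 of the 17 tested. TATAAA was found in 18 of the 44 (17 genes), beside 13.6% of all 32851 promoter windows. AGGTCA, the half-site of many nuclear receptors, was found in 12 of the 44 (12 genes), beside 16.3% of all windows. GCGTG, the core of the element bound by the aryl hydrocarbon receptor, was found in 11 of the 44 (10 genes), beside 32.4%. A direct repeat of AGGTCA with 1 base between the copies was found in 0 of the 44 and in 0.0396% of all windows. A match in these letters is a description and not a site of binding.

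The genes on chromosome 7 from Cyp2s1 to Cyp2t4 (chr7:25802475-27158668) include the Cyp2a and Cyp2b genes of the liver, and 2 of the 13 were tested. Cyp2s1, an enzyme of epithelia outside the liver, had the highest mean normalized count of the 54 genes in both genotypes, with 5004, 3578, 5489, 9098 and 3818 in ApcMin/+ replicates 1 to 5, and 3960, 3225, 5171 and 4751 in ApcMin/+; p16cis/cis replicates 1 to 4. ApcMin/+ replicate 4 stood above the rest and the other mice of both genotypes overlapped. In ApcMin/+; p16cis/cis replicates 2 and 4 Cyp2d34 was higher than Cyp2s1. Cyp2f2, which activates naphthalene in the airway, had 428, 474, 549, 1159 and 284 normalized counts in ApcMin/+ mice and 875, 405, 613 and 613 in ApcMin/+; p16cis/cis animals, again with replicate 4 of the first group on top. The log2 fold changes were -0.27 (standard error 0.24) for Cyp2s1 and 0.23 (standard error 0.34) for Cyp2f2, and neither passed the test. Both genes overlap exons of an annotated gene on the opposite strand, whose reads cannot be told apart where strand was not counted. The liver genes of this stretch were nearly silent. Cyp2b10, the classical target of the receptor CAR, had 17 reads in ApcMin/+ replicate 4 (a normalized count of 21.6) and at most 3 reads in any other mouse, and the 5 genes at 0 in all mice here were Cyp2a4, Cyp2a5, Cyp2b13, Cyp2b23 and Cyp2g1.

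**Figure D4:**
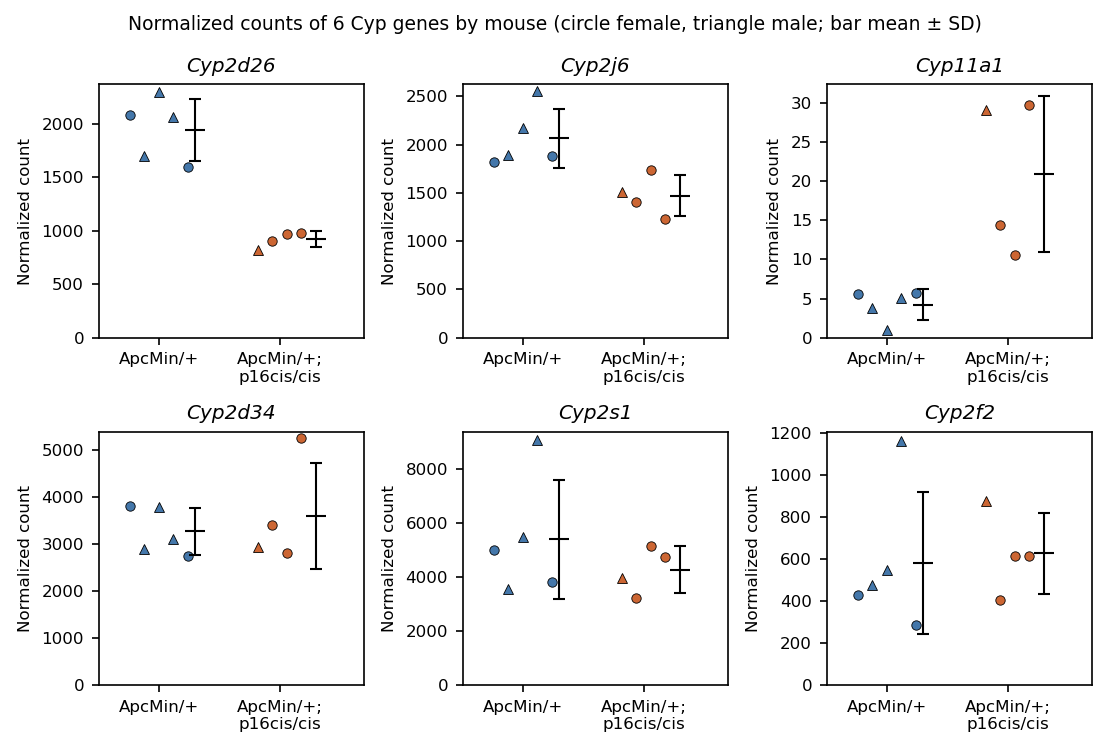
Normalized counts of 6 genes in each mouse, with the y axis from 0 and bars for the mean ± SD of each genotype. The genotypes do not overlap for Cyp2d26, Cyp2j6 and Cyp11a1 and overlap for Cyp2d34, Cyp2s1 and Cyp2f2, where single mice stand above the others.

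The Cyp2j enzymes turn arachidonic acid and related fatty acids into epoxides, which epoxide hydrolases then open to diols. Of the 8 Cyp2j genes on chromosome 4, Cyp2j6 carried 13544 of 13982 reads. It had normalized counts of 1823, 1893, 2172, 2556 and 1885 in ApcMin/+ replicates 1 to 5, and 1512, 1410, 1733 and 1233 in ApcMin/+; p16cis/cis replicates 1 to 4. The genotypes did not overlap, although the highest mouse of the second group, at 1733, was close to the lowest of the first. Cyp2j6 was lower by less than 2-fold, with a log2 fold change of -0.49 and a standard error of 0.13 (limma, adjusted p = 0.0250). The adjusted p of limma rose to 0.0637 without ApcMin/+ replicate 3, and to 0.0700 and 0.0810 without ApcMin/+; p16cis/cis replicates 2 and 4. Sex as a covariate gave 0.0662, and females alone gave 0.208. With the mitochondrial share as a covariate the difference was -0.18 with a standard error of 0.27 (adjusted p = 0.926 from limma). Cyp2j9, the other tested gene of the group, had 43.5, 47.5, 68.3, 68.6 and 44.3 normalized counts in ApcMin/+ mice and 49.2, 71.8, 34.6 and 32.9 in ApcMin/+; p16cis/cis animals, with overlap and a log2 fold change of -0.24 (standard error 0.28).

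Of 4 epoxide hydrolase genes, 3 were tested and 0 were called, and 2 had an adjusted p under 0.05 in limma, in opposite directions, beside 16.9% of all genes tested at this p. Ephx2, the soluble hydrolase that acts on fatty acid epoxides, had normalized counts of 527 to 1471 in ApcMin/+ mice and 384.7 to 465 in ApcMin/+; p16cis/cis animals, at a log2 fold change of -0.85 (standard error 0.25, adjusted p = 0.0370 from limma). Ephx1, the microsomal hydrolase of xenobiotic epoxides, had 396 to 454 and 501 to 625, at a log2 fold change of 0.41 (standard error 0.11, adjusted p = 0.0266 from limma). For neither gene did the genotypes overlap.

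Among the remaining Cyp2 genes, Cyp2w1, an enzyme of the colon and of colonic tumors, had normalized counts of 97.1, 98.9, 82.9, 55.9 and 149 in ApcMin/+ replicates 1 to 5, and 93.4, 84.5, 90.2 and 48.6 in ApcMin/+; p16cis/cis replicates 1 to 4. Cyp2u1, a hydroxylase of long-chain fatty acids, had 25.7, 24.7, 17.6, 24.2 and 14.8 and then 21.5, 12.8, 30.1 and 45.4. Both genes overlapped widely between the genotypes, with log2 fold changes of -0.26 (standard error 0.29) and 0.24 (standard error 0.38). Cyp2e1, the ethanol-oxidizing enzyme of the liver, had 2 reads in all mice together.

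Of 5 genes that hydroxylate sterols on the way to bile acids 2 were tested, and Cyp7a1, which encodes the rate-limiting enzyme in the liver, was at 0 in every mouse. Cyp39a1, an oxysterol hydroxylase, had normalized counts of 596, 566, 636, 558 and 616 in ApcMin/+ replicates 1 to 5, and 832, 644, 482 and 580 in ApcMin/+; p16cis/cis replicates 1 to 4. The ApcMin/+ mice lay close together (coefficient of variation 5.56%, the smallest of the 17 genes in that group), and of the other 4 mice 2 lay above them, 1 below and 1 among them. Cyp27a1, the mitochondrial sterol side-chain hydroxylase, had 597, 303, 386, 895 and 339 and then 514, 426, 326 and 678. Its mice spread nearly 3-fold within ApcMin/+ (2.95 between the highest and the lowest). The log2 fold changes were 0.07 (standard error 0.14) and 0.02 (standard error 0.30), and no difference was detected for either.

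In vitamin D metabolism, Cyp2r1 makes the circulating form, Cyp27b1 the hormone and Cyp24a1 removes it. Cyp2r1 had normalized counts of 36.8, 36.1, 41.0, 38.1 and 44.3 in ApcMin/+ replicates 1 to 5, and 37.9, 25.5, 64.6 and 32.9 in ApcMin/+; p16cis/cis replicates 1 to 4, a log2 fold change of -0.045 (standard error 0.28). Cyp27b1 had 4.46, 9.51, 4.88, 1.27 and 4.54 and then 3.79, 4.79, 9.02 and 25.1, below the filter. Its value in ApcMin/+; p16cis/cis replicate 4 rested on 16 reads and was the largest of any gene below the filter. Cyp24a1, a classical target of the vitamin D receptor, had 7 reads in all mice together, 5 of them in ApcMin/+ replicate 4. The receptor gene Vdr had normalized counts of 9119 to 11934 over the 9 mice and a log2 fold change of 0.08 (standard error 0.12).

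The 3 retinoic acid hydroxylases were all below the filter. Cyp26b1 had normalized counts of 5.58, 4.75, 0.976, 6.36 and 2.27 in ApcMin/+ replicates 1 to 5, and 8.84, 6.38, 3.01 and 6.27 in ApcMin/+; p16cis/cis replicates 1 to 4. Cyp26a1 had 0 reads in 7 mice, and 1 and 3 reads in ApcMin/+; p16cis/cis replicates 2 and 4. At these counts a difference was not detectable. Rara, which encodes a retinoic acid receptor, had 477 to 763 normalized counts in ApcMin/+ mice and 952 to 1157 in ApcMin/+; p16cis/cis animals, without overlap, and was higher by less than 2-fold (log2 fold change 0.78, standard error 0.15, adjusted p = 0.00725 from limma). An adjusted p under 0.05 was found for 16.9% of all genes tested. The receptor gene Rarg had 368 to 549 and 442 to 669, with overlap (log2 fold change 0.04, adjusted p = 0.895 from limma), and Rarb had at most 3.19.

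Of 6 steroid hormone genes 1 was tested. Cyp11a1 (ENSMUSG00000032323.13) encodes the mitochondrial enzyme that cleaves the side chain of cholesterol to give pregnenolone, the parent of all steroid hormones, and lies on the plus strand of chromosome 9 (58006411 to 58027023 in GRCm38). Its normalized counts were 5.58, 3.80, 0.976, 5.08 and 5.68 in ApcMin/+ replicates 1 to 5, and 29.0, 14.4, 10.5 and 29.8 in ApcMin/+; p16cis/cis replicates 1 to 4. All 4 mice of the second group were above all 5 of the first, but the values rested on few reads. They came from 5, 4, 1, 4 and 5 reads in the first group and 23, 9, 7 and 19 in the second. The means were 4.22 ± 1.96 (SD, n = 5) and 20.9 ± 9.92 (SD, n = 4), and the log2 fold change was 2.07 with a standard error of 0.52 (limma, adjusted p = 0.0205). No ApcMin/+ mouse reached the value of 10 that the filter asks for, so the gene was tested only because it was high in the second group, and the p carries that limit. The call was lost without ApcMin/+; p16cis/cis replicate 1 or 4 (limma, adjusted p = 0.0534 and 0.0700). It was also lost in females alone (1.41, adjusted p = 0.194 from limma) and with the mitochondrial share as a covariate (1.59, adjusted p = 0.856 from limma). A pseudocount of 5 gave a log2 fold change of 1.44. Its exons overlap those of Gm17322 on the same strand, a gene not analysed here.

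The other P450 genes of steroid hormone synthesis were at or near 0. Cyp17a1 had 1 read in ApcMin/+ replicate 5, 1 in ApcMin/+; p16cis/cis replicate 1 and 4 in replicate 4, normalized counts of 1.14, 1.26 and 6.27, and 0 in the other 6 mice. Cyp11b1, Cyp11b2 and Cyp19a1 were at 0 in all mice, and Cyp21a1 had 2 reads in all. The cholesterol carrier gene Star had 58.5 to 78.1 normalized counts in ApcMin/+ mice and 57.1 to 118 in ApcMin/+; p16cis/cis animals, with overlap. Nr5a2, a nuclear receptor of intestinal steroid synthesis, had 1499 to 1712 and 1072 to 1514, with a log2 fold change of -0.36 and an adjusted p of 0.0533 from limma, and its relative Nr5a1 had at most 1.60. Hsd3b1, which acts on pregnenolone, had at most 9.02. Hsd11b2, which inactivates glucocorticoids, had 8595 to 17425 and 6191 to 10750, with overlap, a log2 fold change of -0.57 and an adjusted p of 0.0833 from limma. The summed level of 6 mast cell markers was 1401 to 1909 and 1197 to 1557, with overlap, and nearly all of it was Kit, at 1372 to 1849 and 1128 to 1453 (log2 fold change -0.27). The other 3 tested mast cell genes had log2 fold changes above 0, with 1.25 for Tpsb2, 1.03 for Mcpt1 and 0.45 for Mcpt2, and the median of the 4 was 0.74. Tpsb2 had 1.90 to 11.4 in ApcMin/+ mice and 11.2 to 20.4 in ApcMin/+; p16cis/cis animals, so it passed the filter mainly through the second group. None of the 4 had an adjusted p under 0.05 in limma, and Cpa3 had at most 4.51 normalized counts. The summed level of 6 tuft cell markers was 520 to 2544 and 858 to 2286, with overlap, and all 5 tested had log2 fold changes above 0 with none called. The part of these cells in the level of Cyp11a1 was not tested. These partners and markers were looked up after the values of Cyp11a1 were known.

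RefSeq lists 2 start sites of Cyp11a1, and neither is the start of the gene at the position given above. The upstream one lies before that position and the downstream one inside the gene. The 250 bases before the downstream one (chr9:58014702-58014951, plus strand, GRCm38.p6) are shown because they hold a match to AGGTCA, the half-site named above. Capitals mark the match, which begins 28 bases before the start site, and the window of the other start site held no match to any motif searched.
Cyp11a1: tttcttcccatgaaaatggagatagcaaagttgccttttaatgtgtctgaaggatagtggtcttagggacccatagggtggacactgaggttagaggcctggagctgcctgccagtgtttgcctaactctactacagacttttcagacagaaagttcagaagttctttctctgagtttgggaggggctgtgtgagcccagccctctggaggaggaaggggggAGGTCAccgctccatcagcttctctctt

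The Cyp1 genes, the classical targets of the aryl hydrocarbon receptor, gave 15 reads in all mice. Cyp1a1 had normalized counts of 2.23, 0.951, 4.88, 2.54 and 1.14 in ApcMin/+ replicates 1 to 5, and 2.53, 0, 0 and 0 in ApcMin/+; p16cis/cis replicates 1 to 4. These came from at most 5 reads a mouse, and a difference was not detectable. Cyp1b1 had 1 read each in ApcMin/+ replicates 4 and 5 (normalized counts of 1.27 and 1.14) and 0 in the other mice. The receptor gene Ahr was at 256 to 394 in ApcMin/+ mice and 201 to 285 in ApcMin/+; p16cis/cis animals (log2 fold change -0.35, adjusted p = 0.154 from limma). The 250 bases before the start site of Cyp1a1 (chr9:57697363-57697612, plus strand, GRCm38.p6) are shown as those of a gene with a match to both GCGTG and TATAAA, in capitals, that was hardly read in this tissue.
Cyp1a1: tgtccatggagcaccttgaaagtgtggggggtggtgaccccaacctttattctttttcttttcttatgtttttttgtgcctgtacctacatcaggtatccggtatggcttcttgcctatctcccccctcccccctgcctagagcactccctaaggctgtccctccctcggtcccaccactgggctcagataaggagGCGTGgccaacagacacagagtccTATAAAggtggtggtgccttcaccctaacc
The matches begin 54 and 30 bases before the start site.

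Cyp20a1, an enzyme with no assigned substrate, had normalized counts of 347, 375, 329, 379 and 463 in ApcMin/+ replicates 1 to 5, and 395.2, 305, 377 and 284 in ApcMin/+; p16cis/cis replicates 1 to 4. The groups overlapped, and the log2 fold change was -0.16 (standard error 0.14).

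Genes of electron supply to P450 enzymes and of haem synthesis and breakdown were read from a list of 21 electron donors and haem genes, of which 20 were tested. None was called by limma, beside 3.48% of all genes tested. An unadjusted p under 0.05 was found for 9 of the 20, beside 4779 of all 14410, and an adjusted p under 0.05 for 3, 1 higher and 2 lower, near the 16.9% of all genes tested. Ppox, the next to last enzyme of haem synthesis, had 416 to 496 normalized counts in ApcMin/+ mice and 633 to 1005 in ApcMin/+; p16cis/cis animals (log2 fold change 0.77, adjusted p = 0.00658 from limma). Fech, the last enzyme of that path, had 1242 to 1595 and 851 to 1129 (log2 fold change -0.46, adjusted p = 0.0226 from limma), so the last 2 steps differed in opposite directions. Pgrmc1, a haem-binding partner of P450 enzymes, had 2071 to 3154 and 1612 to 2057 (log2 fold change -0.45, adjusted p = 0.0339 from limma). Por, which donates electrons to all microsomal P450 enzymes, had 2632 to 6553 and 1799 to 3853, with overlap. Its log2 fold change was -0.79 with an adjusted p of 0.0663 from limma. Por was called without ApcMin/+; p16cis/cis replicate 3 (-1.05, adjusted p = 0.0200 from limma). At less than 2-fold it also had an adjusted p under 0.05 in DESeq2 with all mice (-0.79, adjusted p = 0.0291). The same held in limma without ApcMin/+ replicate 5 and with the replicate numbers as a block (-0.94 each, adjusted p = 0.0426 and 0.0211). Its log2 fold change was -0.69 with sex as a covariate, -0.27 in females alone and -0.07 with the mitochondrial share as a covariate (limma, adjusted p = 0.147, 0.582 and 0.986). Of 26 regulators of Cyp genes 21 were tested, 1 was called and 5 had an adjusted p under 0.05, 3 of them higher and 2 lower, shares near the same 3.48% and 16.9%. The called gene was Ppara, the receptor that drives genes of fatty acid oxidation, with 164 to 277 and 61.1 to 138 normalized counts and a log2 fold change of -1.15 (adjusted p = 0.0111 from limma). Without ApcMin/+; p16cis/cis replicate 4 its difference was -0.93, under 2-fold (adjusted p = 0.0334 from limma). Nr1h2 was higher by 0.60 on the log2 scale (adjusted p = 0.00740 from limma), and Nfe2l2 was lower with -0.48 (adjusted p = 0.0166 from limma). Hnf4a, a main factor of the intestinal epithelium, had a log2 fold change of -0.0028, and the xenobiotic receptor gene Nr1i2 had 0.06. The median log2 fold change was -0.16 over the tested electron donors and haem genes, -0.0028 over the regulators and -0.067 over the epoxide hydrolases, beside -0.0041 over all genes tested.

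Several P450 genes of the liver differ between male and female mice, and both sexes were present in each genotype, so the sex term was read from a fit of genotype and sex. None of the 17 genes was called, and 0.0486% of all genes tested were. The count of unadjusted p-values under 0.05 was 2 of 17 in limma, beside 631 of all 14410, and edgeR and DESeq2 also called 0. The 2 genes were Cyp2f2, with 474 to 1159 normalized counts in 4 males and 284 to 613 in 5 females (log2 difference male minus female 0.85, standard error 0.27), and Cyp2d22, with 342 to 583 and 170 to 506 (0.86, standard error 0.30). Their adjusted p-values were 0.992 in limma, and the sexes overlapped for both. Cyp2d9, a gene known for male-biased levels in the liver, had 154 to 467 normalized counts in males and 92.5 to 526 in females. The genotype effect could hardly be compared between the sexes, since the ApcMin/+; p16cis/cis group held 1 male, assumed in the fit to vary like the others. Values of that contrast are therefore not given.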

How the data were processed

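The authors aligned reads of the BGISEQ-500 platform with BOWTIE2 and computed gene levels with RSEM. The table they deposited holds a signal per gene and mouse, gene counts divided by a size factor. Build and versions are not given in the sources used here. All positive values (100%) were whole multiples of the value of 1 read within 0.01, so reads were recovered. Of the 54146 identifiers 52480 matched GENCODE M21 (GRCm38) with version, which gave positions and exon lengths.

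Genotypes were compared by limma 3.58.1 (R 4.3.3, trended variances, no covariate, Benjamini-Hochberg adjustment) on log2 of the value plus a pseudocount of 1, for 14410 genes that reached 10 in 4 or more mice. edgeR 4.0.16 and DESeq2 1.42.0 on recovered reads were alternatives. The procedure was also run on simulated counts with known changes, and the outcome is not reported here. That simulation held no difference between the genotypes in mitochondrial share or cell composition, so it gives no check of those. Members called or with an adjusted p under 0.05 and the 2 highest of each role group were to be given mouse by mouse, and called pathway genes named. Other tested members, and those with 3 or more reads in a mouse, could be named. Further members, pathway genes and markers were named after their values were seen. Members and lists were chosen with earlier results of these data known. A listed regulator is counted but not reported by name here. Promoter sequences came from RefSeq (GRCm38.p6). Same-numbered mice were different animals, and the correlations of their deviations were -0.18, 0.07, 0.05 and 0.14, so the numbers were not treated as pairs.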

Additional observations from a re-analysis of the deposited data

Results flagged for a closer look

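Over 44 groups of mice (22 genes in each genotype), 2 held a mouse flagged as far from the others. In both, every other mouse was at 0, so any value above 0 was flagged whatever its size. About 2.2 flags would arise by chance at 1 in 20 groups, a rate that does not describe counts that are mostly 0. Cyp17a1, the steroid gene that acts after Cyp11a1, had a normalized count of 1.14 in ApcMin/+ replicate 5, from 1 read, and 0 in the other ApcMin/+ mice. Cyp1a1 had 2.53 in ApcMin/+; p16cis/cis replicate 1, from 2 reads, and 0 in the other mice of that genotype.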

How the results depend on the processing

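Over 23 alternatives the log2 fold change of Cyp2d26 was between -1.14 and -0.93, with an adjusted p under 0.05 in 22. Cyp11a1 was tested in 22, with 1.41 to 2.36 and an adjusted p under 0.05 in 18. Most of these kept the filter that Cyp11a1 passed only through the ApcMin/+; p16cis/cis animals, so this count carries the same limit. Cyp2j6 had -0.57 to -0.18 and 17 of 23. Among the other 14 genes none passed in any alternative, and 10 changed sign in at least 1, in 37 fits in all. The 2 genes called became 1 with a value of at least 10 in all 9 mice and 1 with Bonferroni adjustment. With each mouse left out they became 1 to 2. In females only 0 were called, and 2 of the 17 had an unadjusted p under 0.05, beside 3780 of all 14410. With the mitochondrial share as a covariate 0 were called, and 2 of the 17 had such a p, beside 798 of all 14410. The 501 genes called of all tested became 331 with sex as a covariate, 286 in females only, 0 with the mitochondrial share (798 with an unadjusted p under 0.05), 19 with Bonferroni adjustment, 2434 with any fold, 1330 at a fold over 1.5 (a threshold chosen after seeing the data) and 281 to 755 with each mouse left out, the lowest without ApcMin/+; p16cis/cis replicate 4 and the highest without ApcMin/+ replicate 4. The 1 gene called among donors, regulators and hydrolases became 0 in females only, 0 with the mitochondrial share, 0 with Bonferroni adjustment, 10 with any fold, 6 at a fold over 1.5, and 0 to 2 with each mouse left out (0 without ApcMin/+; p16cis/cis replicate 4, 2 without replicate 3, where Por was added). With the mitochondrial share the median log2 fold change was 0.23 over the 17 genes and 0.49 over the Cyp2d genes. The cause of these changes was not tested. The replicate block, which uses only the 4 numbers that both genotypes share and so leaves out ApcMin/+ replicate 5, called 2 of the Cyp genes, with -1.14 for Cyp2d26 and 2.19 for Cyp11a1. The numbers do not pair the mice: 1 of 4 mice correlated best with its own number. The sex term called 0 of the Cyp genes in each of 20 alternatives. Depth limits the 24 genes with reads below the filter, 9 of which had at most 2 reads in any mouse.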
